A study of Mus musculus with 8 samples.

Results

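The S100 genes encode small calcium-binding proteins that carry a pair of EF-hand calcium sites and mostly work as dimers. Messenger RNA of 10 of them, S100a1, S100a4, S100a6, S100a8, S100a9, S100a10, S100a11, S100a13, S100a16 and S100b, was followed in mouse haematopoietic stem cells (HSCs), the rare marrow cells from which the blood lineages arise. They were 10 of the 22050 genes with an mRNA model in the deposited tables, and 9 of the 12235 genes with enough reads to be tested. They were chosen by name, with their exon reads at both ages known, so every contrast of the ages in these 10 genes is given below as a description, fold changes and adjusted p-values included. The tables held 18 genes of this kind under an S100 name, and the 8 others are described further on.

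Of the 8 libraries, 4 came from C57BL/6 pups at postnatal day 5 (P5) and 4 from C57BL/6 mice aged 4 weeks. Both sets were bone marrow cells sorted as CD150+, CD48-, EPCR+ and Lineage-, with 100 cells for each library and no treatment or altered allele named in the labels. The labels do not state whether libraries of 1 age stem from different animals, and p-values here reflect only how these samples varied, technical variation included. HSCs cultured for 1 day are also mentioned in the series text and were not analysed here.

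When calcium rises, an S100 dimer opens a groove that grips a partner protein, and through such partners the family acts on the cytoskeleton, membranes, enzymes and transcription regulators. Some members also leave the cell: S100A8 and S100A9, which together form calprotectin, are stored in the cytosol of neutrophils and monocytes and act outside as ligands of TLR4 and of RAGE, the product of Ager. S100A10 is the exception to calcium control, since its own calcium sites are inactive, and it is held in a stable complex with annexin A2 at membranes.

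Between the ages the 10 genes fell into 3 sets. S100a4, S100a6, S100a10 and S100a16 had more exon reads in every P5 library than in any 4-week library. S100a8 and S100a9 had reads in all 4-week libraries and none in any P5 library. S100a1, S100a11, S100a13 and S100b overlapped between ages. In edgeR's quasi-likelihood test, adjusted by Benjamini-Hochberg over all 12235 genes, 4 members were called higher at P5, where 7.99% of all genes were, and 1 was called lower, S100a8, where 8.55% were (adjusted p under 0.05). The other 4 of the 9 tested were not called, and S100a9 had too few reads for the filter. Of all tested genes 21.2% did not overlap between ages, 10% higher and 11.2% lower at P5. S100a8 and S100a16 passed the filter only through the age that had reads. Counts in such small sets rest on the choice of the genes, and nothing is read from them.

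**Figure D1:**
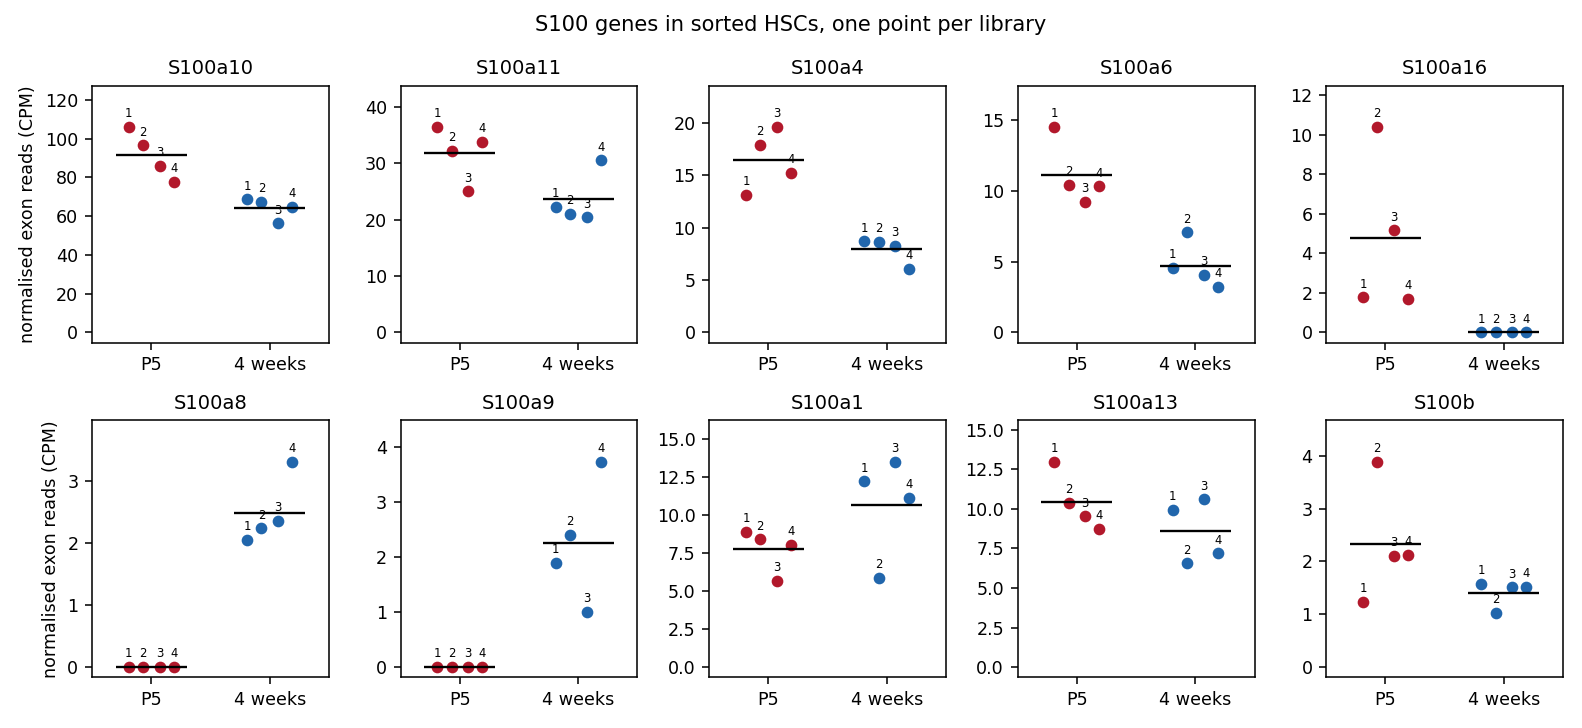
Each panel plots 1 S100 gene in sorted HSCs as normalised exon reads (CPM, counts per 1000000 reads, y axis) at P5 (red) and 4 weeks (blue). Numbered points are the 4 libraries of an age and the bar is their mean; S100a16 sits at 0 in every 4-week library, and S100a8 and S100a9 at 0 in every P5 library.

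Of the 10 genes, 9 lie on chromosome 3 and S100b lies on chromosome 10 (76253836 to 76261319, GRCm38.p6). Along chromosome 3 the order is S100a1 (90511034 to 90514330), S100a13 (90514233 to 90524581), S100a16 (90537254 to 90543151), S100a4 (90603770 to 90606045), S100a6 (90612894 to 90614414), S100a8 (90669071 to 90670034) and S100a9 (90692630 to 90695721). S100a11 (93520496 to 93526288) and S100a10 (93555117 to 93564645) lie apart from these, side by side. Genes with more reads at P5 and the calprotectin genes with reads only at 4 weeks thus sit in the same cluster. The 250 bases before the RefSeq start of the genes that were read at 1 age only are shown here because those genes differed most between ages. Those of S100a4, with a large change beside reads at both ages, are added. The window of S100a6, with a larger log2 fold change than S100a4, held no match to the letters below and is not printed. All those printed are RefSeq sequences on build GRCm38.p6, each 5′ to 3′ on the strand of its gene. Capitals mark every match, on either strand, to TATAAA, known as the core promoter box, to TTGCNNAA for C/EBP factors, to AGGAAG for ETS factors, to TGANTCA for AP-1, to TTCNNNGAA for STAT factors or to GGGCGG, known as the GC box, where N is any base.
S100a8, chr3:90668821-90669070, + strand: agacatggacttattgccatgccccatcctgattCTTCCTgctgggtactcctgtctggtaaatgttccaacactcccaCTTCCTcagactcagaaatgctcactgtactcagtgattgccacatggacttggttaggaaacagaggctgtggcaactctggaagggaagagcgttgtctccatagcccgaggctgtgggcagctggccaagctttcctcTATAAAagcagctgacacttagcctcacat
S100a9, chr3:90695722-90695971, - strand: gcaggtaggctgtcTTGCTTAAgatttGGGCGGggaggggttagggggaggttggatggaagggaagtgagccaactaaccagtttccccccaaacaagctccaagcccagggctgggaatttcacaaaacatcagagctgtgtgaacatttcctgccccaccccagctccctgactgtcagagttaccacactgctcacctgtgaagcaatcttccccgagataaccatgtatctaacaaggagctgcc
S100a4, chr3:90603520-90603769, + strand: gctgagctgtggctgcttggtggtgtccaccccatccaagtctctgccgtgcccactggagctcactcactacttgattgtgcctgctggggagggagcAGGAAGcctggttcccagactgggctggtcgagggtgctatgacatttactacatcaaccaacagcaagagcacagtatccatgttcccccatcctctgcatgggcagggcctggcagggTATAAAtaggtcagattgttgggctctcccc
S100a16, chr3:90537004-90537253, + strand: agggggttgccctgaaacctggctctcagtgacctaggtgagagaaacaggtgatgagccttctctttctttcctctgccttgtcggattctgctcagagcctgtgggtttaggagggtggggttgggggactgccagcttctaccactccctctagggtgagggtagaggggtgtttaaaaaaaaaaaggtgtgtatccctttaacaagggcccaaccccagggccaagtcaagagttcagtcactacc
S100a16 second start, chr3:90540896-90541145, + strand: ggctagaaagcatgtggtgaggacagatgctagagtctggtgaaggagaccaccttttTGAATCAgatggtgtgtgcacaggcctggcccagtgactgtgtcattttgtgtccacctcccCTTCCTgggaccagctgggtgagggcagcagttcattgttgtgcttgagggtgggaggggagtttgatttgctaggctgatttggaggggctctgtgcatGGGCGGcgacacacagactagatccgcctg

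TATAAA stood at bases -30 to -25 before the start of S100a8 and at -31 to -26 before that of S100a4, and was found in 12.4% of the 32851 RefSeq promoter windows of this length. TTGCNNAA, the core bound by the C/EBP factors of myeloid cells, was found before S100a9 alone of the 9 members with a window, at -236 to -229, and in 9.56% of all windows. AGGAAG was found before S100a4, S100a8, S100a16 and S100b and in 29.5% of all windows. TGANTCA was found before S100a16 and S100a11, against 6.75% of all windows. The first S100a16 window, at its outer start, held no match, and neither did that of S100a6. GGGCGG was found before S100a9, S100a11 and S100a16 and in 32.7% of all windows, while TTCNNNGAA was found in 7.02% of all windows and before no member. These matches are letters only, and S100a10 has no window here.

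S100a10 was the most abundant member at both ages. It had 781, 621, 531 and 550 exon reads in the P5 libraries, against 434, 390, 334 and 467 in the 4-week libraries. Every P5 library lay above every 4-week library, with P5 replicate 1 highest. The means were 91.6 ± 12.6 CPM at P5 and 64.2 ± 5.55 CPM at 4 weeks (SD, n = 4 each), a log2 fold change of 0.51 ± 0.112 (SE, edgeR adjusted p = 0.00650), or 1.43-fold. With intron reads added to exon reads the log2 fold change was 0.19 (edgeR adjusted p = 0.539). The call of S100a10 was also lost with Y-linked reads as a covariate, a setting described below.

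S100a4, also known as metastasin, binds non-muscle myosin IIA and is linked to cell movement. Its exon reads were 96, 115, 121 and 108 at P5, against 55, 50, 49 and 44 at 4 weeks. The lowest P5 library was well above the highest 4-week library. It averaged 16.4 ± 2.86 CPM at P5 and 7.91 ± 1.23 CPM at 4 weeks (SD, n = 4 each), a log2 fold change of 1.05 ± 0.203 (SE, edgeR adjusted p = 0.00300).

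S100a6, or calcyclin, is a cytoplasmic member known to bind the CacyBP protein. It had 106, 67, 57 and 73 exon reads at P5, against 29, 41, 24 and 23 at 4 weeks. P5 replicate 1 stood highest and the ages did not overlap. The means were 11.1 ± 2.30 CPM at P5 and 4.72 ± 1.67 CPM at 4 weeks (SD, n = 4 each), a log2 fold change of 1.24 ± 0.282 (SE, edgeR adjusted p = 0.00818). The call was lost with Y-linked reads as a covariate (edgeR adjusted p = 0.0542), a setting described below.

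S100a16 is a broadly expressed member. It had 13, 67, 32 and 12 exon reads at P5, against 0, 0, 0 and 0 at 4 weeks. P5 replicate 2 alone gave more than the other P5 libraries together. Set against a floor of 3 reads over all 4-week libraries, its 124 P5 reads made it at least 38.7-fold higher at P5. Without P5 replicate 2 its P5 mean was 2.88 ± 1.99 CPM (SD, n = 3), against 4.76 ± 4.10 CPM with all 4 P5 libraries (SD, n = 4), and the bound was at least 23.3-fold. The fitted log2 fold change of a gene with no read at 1 age depends on the prior count and is not used (edgeR adjusted p = 0.00219 with all libraries, 0.00250 without P5 replicate 2). Of its P5 exon reads 8 in replicate 2 and 4 in replicate 3 crossed an exon junction, and none of the 13 in replicate 1 or the 12 in replicate 4 did. A further read lay in an intron.

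S100a8 and S100a9, the calprotectin genes, made up the opposite pattern. S100a8 had 0, 0, 0 and 0 exon reads at P5, against 13, 13, 14 and 24 at 4 weeks. S100a9 had 0, 0, 0 and 0 at P5, against 12, 14, 6 and 27 at 4 weeks. Both were read in every 4-week library, most in replicate 4. Against a floor of 3 reads over all P5 libraries, S100a8 was at least 22.8-fold lower at P5 and S100a9 at least 21.0-fold lower (edgeR adjusted p = 0.000699 for S100a8). A sum of 0 reads in the P5 libraries does not show that the transcripts were absent. S100a9 could be tested in 9 other settings, among them no filter on low counts, and its adjusted p was between 1.03e-05 and 0.0163 there. It had no P5 read in any of those fits, so these calls were nearly fixed in advance and nothing is read from them.

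The reads of the calprotectin genes at 4 weeks were those of spliced transcripts in part. Of 64 S100a8 exon reads 17 crossed an exon junction and none lay in its introns, and of 59 S100a9 exon reads 7 crossed a junction, with 1 read in an intron. At P5 S100a9 had 2 intron reads and S100a8 had none. Together the pair reached 3.95, 4.65, 3.37 and 7.06 CPM in the 4-week libraries, a small share of the CPM of the family. The ratio of S100a8 to S100a9 exon reads was between 0.889 and 2.33 in those 4 libraries, with replicate 3 highest.

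S100a11, which binds annexin A1 at membranes, was second in abundance. It had 267, 207, 155 and 240 exon reads at P5, against 141, 122, 121 and 220 at 4 weeks. The ages overlapped through 4-week replicate 4. The means were 31.9 ± 4.86 CPM at P5 and 23.5 ± 4.69 CPM at 4 weeks (SD, n = 4 each), a log2 fold change of 0.43 ± 0.164 (SE, edgeR adjusted p = 0.0903). Without 4-week replicate 4 it was 0.59 (edgeR adjusted p = 0.0314). Only 70.3% of its P5 exon reads and 74.7% of its 4-week exon reads were listed as mapping to 1 place, against 100% for the other members with reads, and a processed copy of the gene is annotated, so its level is uncertain.

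S100a1 regulates calcium cycling in heart muscle. It had 65, 54, 35 and 57 exon reads at P5, against 77, 34, 80 and 80 at 4 weeks. At 4 weeks 3 libraries stood above all P5 libraries in CPM and replicate 2 stood among them, so the ages overlapped. The log2 fold change was -0.46 ± 0.270 (SE, edgeR adjusted p = 0.280).

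S100a13 takes part in the export of proteins that lack a signal peptide, such as FGF1 and interleukin 1 alpha. It had 95, 67, 59 and 62 exon reads at P5, against 63, 38, 63 and 52 at 4 weeks. The ages overlapped and the log2 fold change was 0.28 ± 0.232 (SE, edgeR adjusted p = 0.457). With intron reads added it was -0.07 (edgeR adjusted p = 0.880). RefSeq places the 5′ ends of S100a1 and S100a13 over each other in opposite directions, and since the libraries do not mark strand, reads there cannot be told apart.

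S100b, a marker of astrocytes and Schwann cells in nervous tissue, was at the limit of these data. It had 9, 25, 13 and 15 exon reads at P5, against 10, 6, 9 and 11 at 4 weeks. P5 replicate 2 stood highest and the ages overlapped. The log2 fold change was 0.70 ± 0.461 (SE, edgeR adjusted p = 0.337), and 0.35 without P5 replicate 2 (edgeR adjusted p = 0.692). Of these exon reads 1 of 62 at P5 and 0 of 36 at 4 weeks crossed a junction, so they can hardly be assigned to a spliced S100b transcript.

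Per length of exon, the order of the members was clear at the top. S100a10 stood at 141 CPM per kb at P5 (range 119 to 164) and 98.7 at 4 weeks (range 86.5 to 105). S100a11 followed with 63.2 CPM per kb at P5 (range 49.7 to 72.2) and 46.7 at 4 weeks (range 40.4 to 60.5). Each was apart from its neighbours in the order at both ages. S100a4 came next at P5 with 26.3 CPM per kb (range 20.9 to 31.3) and then S100a6 with 15.4 (range 12.8 to 20.1), again with no overlap of their ranges. S100a6, S100a1 and S100a13 overlapped in a chain at P5, and S100a16 and S100b, at 2.94 and 1.40 CPM per kb, overlapped at the bottom of those with reads.

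At 4 weeks the middle of the order was less distinct. S100a1 came after S100a11 with 17.3 CPM per kb (range 9.53 to 21.9), and then S100a4 with 12.7 (range 9.75 to 13.9). Each neighbour from S100a1 through S100a4, S100a13, S100a6 and S100a8 to S100a9 overlapped with the next. S100a8 reached 6.36 CPM per kb (range 5.24 to 8.48), against 6.56 for S100a6 (range 4.43 to 9.83). S100b was at 0.851 CPM per kb and S100a16 had no read.

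The 10 genes summed to 195, 190, 162 and 157 CPM in the P5 libraries, against 132, 122, 118 and 131 CPM in the 4-week libraries. No P5 library fell within the 4-week range. S100a10 alone gave between 49.2% and 54.5% of the family's exon reads at P5 and between 47.7% and 55.1% at 4 weeks.

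**Figure D2:**
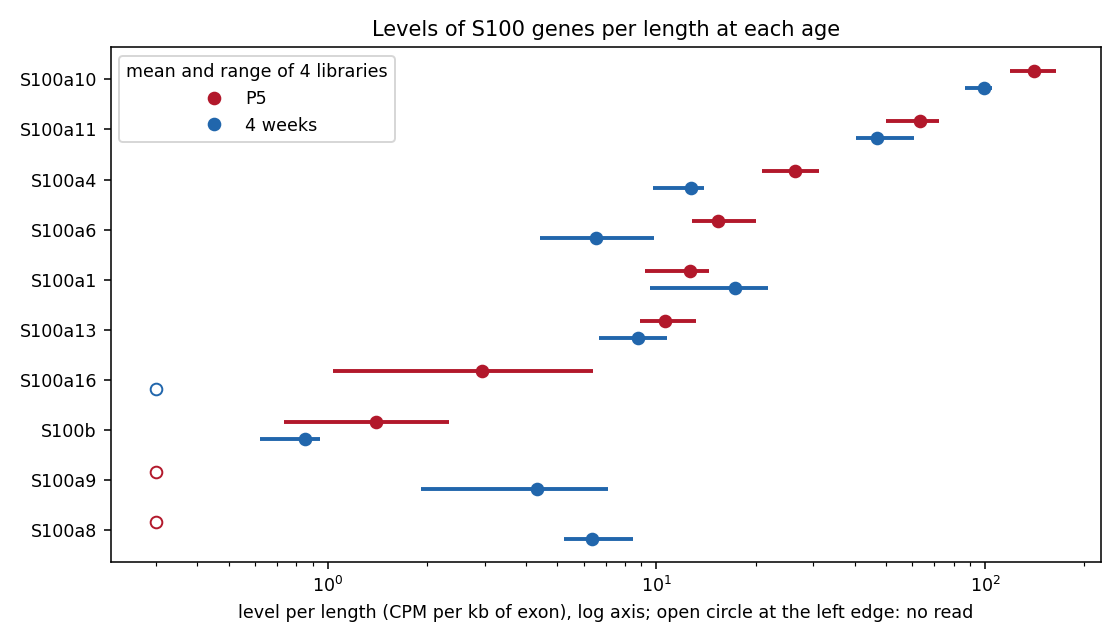
CPM per kb of exon (x axis, log scale) for each S100 gene (rows), with P5 in red above 4 weeks in blue. Points are means and lines the range of 4 libraries, and an open circle marks a gene with no read at that age; S100a10 is highest at both ages, at 141 (P5) and 98.7 (4 weeks).

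Exon and intron reads of the same gene were also counted apart by the authors. S100a10 had 155, 170, 62 and 127 intron reads at P5, against 283, 336, 80 and 338 at 4 weeks, so its intron reads went the other way from its exon reads. Introns held 16.8 ± 4.70% of its reads at P5 and 36.8 ± 12.0% at 4 weeks (± SD over 4 libraries each). The ages overlapped through 4-week replicate 3, at 19.3%. S100a13 held 23.1 ± 2.94% of its reads in introns at P5 (range 18.8% to 25.3%) and 43.1 ± 9.50% at 4 weeks (range 36.4% to 56.7%), with no overlap. Of 11360 genes with at least 20 reads, 11.2% had a lower intron share in every P5 library than in any 4-week library and 1.58% a higher one, and the median difference, P5 minus 4 weeks, was -2.14 percentage points.

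Introns held 45.2 ± 7.33% of S100a1 reads at P5 and 48.2 ± 7.88% at 4 weeks, and 41.1 ± 7.93% of S100a11 reads at P5 and 46.6 ± 4.11% at 4 weeks (± SD over 4 libraries each). S100b reads were mostly intron reads, with a mean of 74.4% at P5 (range 60.6% to 85.1%) and 76.1% at 4 weeks (range 71.9% to 82.5%). S100a4 and S100a6 had few intron reads, with means of 4.23% and 0% at P5 and 5.77% and 0.833% at 4 weeks. Over all genes introns held 60.1% of reads in P5 replicate 1, the library with most S100a10 and S100a6 exon reads, and 66.8% to 68.7% in the other 7 libraries. Without P5 replicate 1 the log2 fold changes of S100a10 and S100a6 were 0.43 and 1.09 (edgeR adjusted p = 0.0181 and 0.0284). Whether intron reads came from unspliced transcripts or from other RNA over the same bases was not tested.

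**Figure D3:**
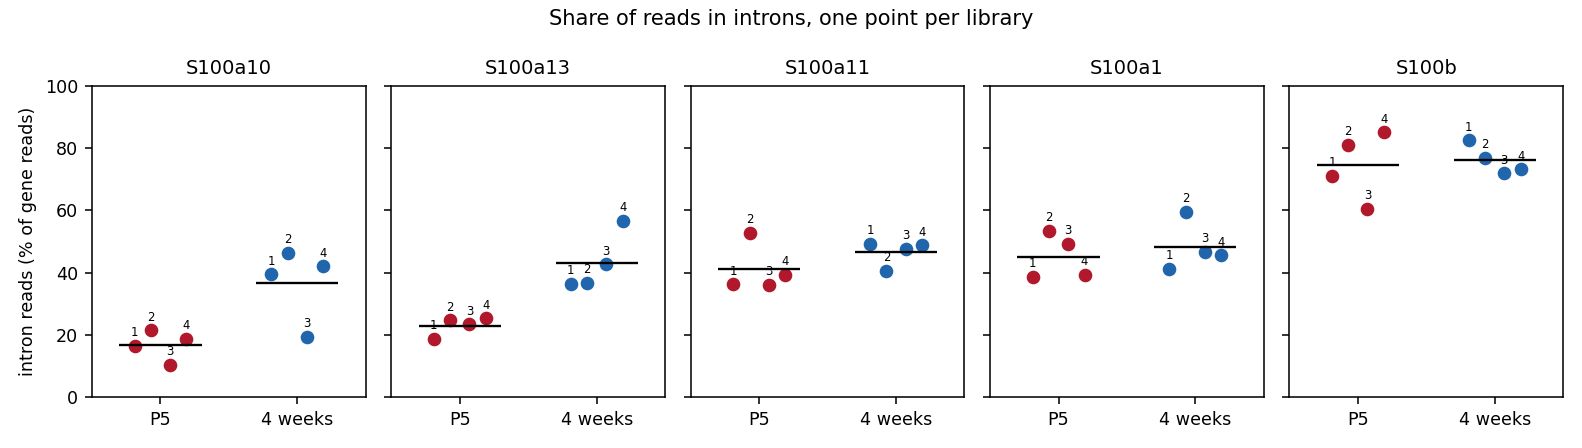
Share of a gene's exon plus intron reads that lay in introns (y axis, percent) for the 5 S100 genes with the most intron reads, at P5 (red) and 4 weeks (blue). Numbered points are libraries and bars are means; the shares of S100a10 and S100a13 average 16.8% and 23.1% at P5, and 36.8% and 43.1% at 4 weeks.

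Receptors, binding partners and targets of S100 proteins were read from a list of 44 genes. Of the 40 tested, 10 rose at P5, 5 fell and 25 were not called, beside 7.99% and 8.55% of all genes called in those directions. The median log2 fold change of the list was 0.11, against -0.004 over all tested genes. In 3 libraries, described below, markers of other cell types stood apart, and without those libraries 5 partners were called higher and 3 lower.

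Annexins are calcium-dependent membrane binders, and several are docking partners of S100 dimers. Of 8 tested, Anxa2, Anxa3 and Anxa6 rose, Anxa4 fell and 4 were not called. Anxa2, the main partner of S100a10, had 545, 477, 442 and 387 exon reads at P5, against 182, 112, 157 and 213 at 4 weeks. The ages were far apart, with 68.6 ± 9.45 CPM at P5 and 26.0 ± 4.65 CPM at 4 weeks (SD, n = 4 each) and a log2 fold change of 1.40 ± 0.150 (SE, edgeR adjusted p = 3.18e-05). Its call held in all 19 other settings. Anxa1, the partner of S100a11, had 49.6 CPM at P5 and 45.9 CPM at 4 weeks (log2 fold change 0.11, edgeR adjusted p = 0.525).

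The S100a10 to Anxa2 ratio of exon reads per length was 3.96, 3.60, 3.32 and 3.93 in the P5 libraries, against 6.59, 9.62, 5.88 and 6.06 in the 4-week libraries. Every P5 ratio was below every 4-week ratio, and 4-week replicate 2, with the fewest Anxa2 reads, was highest. S100a10 RNA thus exceeded Anxa2 RNA at both ages, by a smaller factor at P5. The ratio was computed after both genes had been seen to differ and is given without a test.

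Among cytoskeletal and scaffold targets, 2 of 9 tested rose, Ahnak and Iqgap1, and Ezr fell. Ahnak encodes a giant scaffold protein that binds the S100A10-annexin A2 complex beneath the plasma membrane. It had 4332, 5740, 4859 and 4855 exon reads at P5, against 1694, 735, 1562 and 1350 at 4 weeks. The ages did not overlap, at 738 ± 130.0 CPM at P5 and 211 ± 67.3 CPM at 4 weeks (SD, n = 4 each), a log2 fold change of 1.81 ± 0.200 (SE, edgeR adjusted p = 4.00e-05). Myh9, the heavy chain of the myosin that S100A4 binds, had 1110 CPM at P5 and 1160 CPM at 4 weeks (log2 fold change -0.08, edgeR adjusted p = 0.530).

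Receptors and surface binders moved in both directions: of 8 tested, Ager, Cd33 and Cd68 rose, Alcam fell and 4 were not called. Ager, which encodes RAGE and is listed on 4 contigs whose reads were summed, had 48, 92, 81 and 66 exon reads at P5, against 18, 30, 29 and 38 at 4 weeks. Its lowest P5 library stood above its highest 4-week library in CPM, and the log2 fold change was 1.24 ± 0.306 (SE, edgeR adjusted p = 0.0133). With intron reads added the call was lost (edgeR adjusted p = 0.0533), and so it was in the 5-library setting described below (edgeR adjusted p = 0.0965). Tlr4, the other main receptor of calprotectin, had 29.1 ± 4.56 CPM at P5 and 35.7 ± 2.07 CPM at 4 weeks (SD, n = 4 each), which did not pass (log2 fold change -0.30, edgeR adjusted p = 0.148). Without P5 replicate 2 it did (log2 fold change -0.41, edgeR adjusted p = 0.0444).

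Alcam, an adhesion molecule of the immunoglobulin family, averaged 27.8 ± 5.45 CPM at P5 and 82.2 ± 6.46 CPM at 4 weeks (SD, n = 4 each), a log2 fold change of -1.57 (edgeR adjusted p = 6.56e-06). Cd33, a sialic acid binding receptor of myeloid cells, averaged 10.4 ± 4.31 CPM at P5 and 3.24 ± 1.29 CPM at 4 weeks (SD, n = 4 each), a log2 fold change of 1.67 (edgeR adjusted p = 0.00540). Without 3 libraries with markers of other cells its call was lost (edgeR adjusted p = 0.145). Cd68, a glycoprotein of macrophage lysosomes that is also on the macrophage marker list below, averaged 29.0 ± 6.86 CPM at P5 and 13.7 ± 1.89 CPM at 4 weeks (SD, n = 4 each), a log2 fold change of 1.08 (edgeR adjusted p = 0.00141).

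Of the calcium pumps, channels and signalling targets, Ryr2 rose and Plcb1 fell among 5 tested. Ryr2, the calcium release channel that S100A1 binds in heart, had 98, 56, 45 and 67 exon reads at P5, against 0, 1, 20 and 0 at 4 weeks, of which replicate 3 gave nearly all. Its log2 fold change was 3.49 ± 0.780 (SE, edgeR adjusted p = 0.00748), and without 4-week replicate 3, where few 4-week reads were left, the fitted value was 7.10 (edgeR adjusted p = 2.97e-05). DESeq2 did not call it (adjusted p = 0.0947), nor did edgeR in the libraries with Y-linked reads (adjusted p = 0.0577). Plcb1, a phospholipase C, averaged 7.25 ± 2.26 CPM at P5 and 24.9 ± 4.35 CPM at 4 weeks (SD, n = 4 each), a log2 fold change of -1.77 (edgeR adjusted p = 0.000122). Atp2a2, the other S100A1 target in heart, had 327 CPM at P5 and 305 CPM at 4 weeks (log2 fold change 0.10, edgeR adjusted p = 0.485).

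Among 10 chaperones and other partners tested, Siah1a rose, Fkbp5 fell and 8 were not called. Fkbp5, an immunophilin that works with HSP90 and steroid receptors, had 466, 520, 396 and 598 exon reads at P5, against 980, 725, 971 and 1229 at 4 weeks, with no overlap and a log2 fold change of -1.07 (edgeR adjusted p = 4.92e-05). Cacybp, the namesake partner of S100a6, averaged 48.8 ± 3.34 CPM at P5 and 41.7 ± 4.20 CPM at 4 weeks (SD, n = 4 each), which did not pass (log2 fold change 0.23, edgeR adjusted p = 0.196). It did pass with intron reads added (log2 fold change 0.42, edgeR adjusted p = 0.0200). Of the exon reads of Fkbp5 and of Ager, 0 were listed as mapping to 1 place, since both genes stand on more than 1 contig, so neither could be tested on uniquely mapped reads. Fgf1, Il1a, Syt1 and Trpv5 had too few reads to be tested.

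Of the called partners outside the 8 of smallest p, Iqgap1, Ezr, Anxa3 and Siah1a lost their calls in 12 of 19, 11 of 19, 11 of 18 and 8 of 19 other settings. Among these were leaving out 1 library, any but P5 replicate 1 for Iqgap1, any but P5 replicates 1 and 2 for Ezr, any but P5 replicate 1 and 4-week replicate 4 for Anxa3, and any but P5 replicates 1 and 3 and 4-week replicate 4 for Siah1a (edgeR adjusted p = 0.0501 to 0.117).

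**Figure D4:**
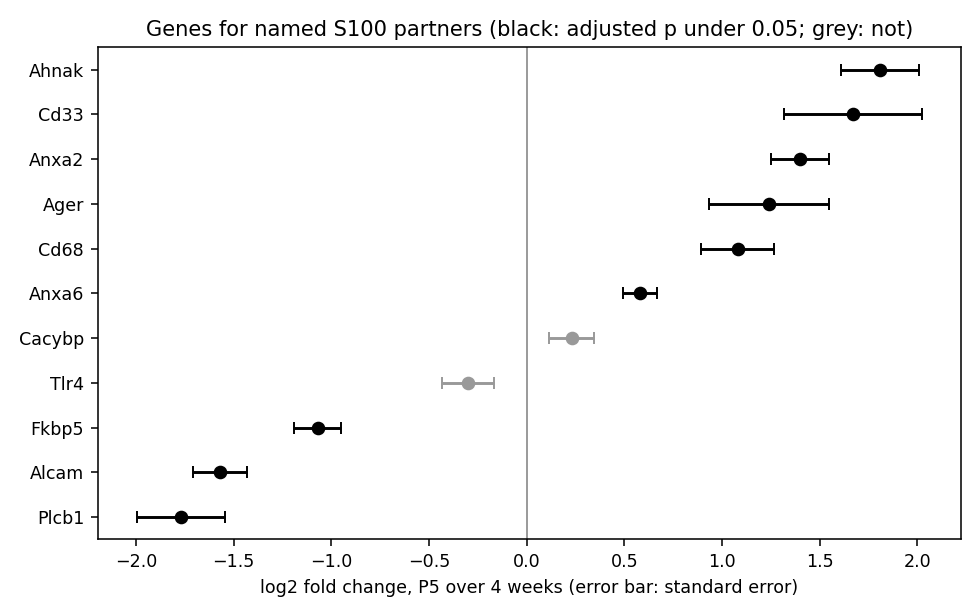
Log2 fold change, P5 over 4 weeks (x axis), of 11 S100 partner genes (rows), the 8 called with the smallest p and Ager, Tlr4 and Cacybp, with bars for the standard error from 8 libraries. Black points passed an adjusted p of 0.05 in edgeR's test and grey points (Cacybp, Tlr4) did not; among the genes drawn Ahnak is at 1.81 and Plcb1 at -1.77, and Ryr2, at 3.49, is not drawn.

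S100 genes sit in a dense gene cluster, so their neighbours were counted too. Of 29 other genes with an mRNA model within 250000 bases of a member, 20 had reads and 15 were tested. In edgeR's test 1 was called higher at P5 and 0 lower, beside 7.99% and 8.55% of all genes. At an unadjusted p under 0.05 there were 1 and 2, and DESeq2 called 1 lower. Their log2 fold changes ran from -0.38 to 0.41 with a median of -0.13, against -0.46 for S100a1 to 1.24 for S100a6 among members with reads at both ages. The called neighbour was Dip2a, beside S100b on chromosome 10, with 52.4 ± 7.01 CPM at P5 and 39.3 ± 4.53 CPM at 4 weeks (SD, n = 4 each) and a log2 fold change of 0.41 (edgeR adjusted p = 0.0441). That call was lost in 13 of 19 other settings, among them leaving out any 1 library other than P5 replicate 1, where the adjusted p was 0.0538 to 0.106.

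The other S100 genes were near or at 0. S100a5 had 4, 0, 0 and 6 exon reads at P5 and 6, 7, 5 and 2 at 4 weeks, and S100a3 had 0, 2, 0 and 3 at P5 and 0, 0, 4 and 0 at 4 weeks. S100a7a had no read at P5 and 1, 3, 2 and 1 reads at 4 weeks, and S100a14 had no read at P5 and 2, 0, 0 and 2 at 4 weeks. S100a2, S100g, S100p and S100z had no exon read in any library, and neither did S100a7l2, listed under the name 9130204L05Rik. None of these could be tested. Of the fused-type relatives, in which an S100 domain heads a long repeat protein of the skin, Tchh had 4, 0, 3 and 4 exon reads at P5 and 0, 0, 0 and 1 at 4 weeks, and Rptn and Flg2 had 1 read each over all libraries. S100pbp, named for binding an S100 protein but not an S100 gene itself, had 125 ± 11.5 CPM at P5 and 107 ± 5.81 CPM at 4 weeks (SD over 4 libraries each; log2 fold change 0.22, edgeR adjusted p = 0.105).

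EF-hand proteins outside the family, listed together with catalytic subunits of calcineurin, gave a wider view of calcium sensors. Of 31 tested from a list of 36, 5 rose at P5, 2 fell and 24 were not called, beside 7.99% and 8.55% of all genes called in those directions, with a median log2 fold change of -0.02. Capn2, a calcium-dependent protease subunit, rose to 85.8 ± 5.94 CPM at P5, against 52.1 ± 5.16 CPM at 4 weeks (SD over 4 libraries each; log2 fold change 0.72, edgeR adjusted p = 0.000306). Stim1 and Stim2, sensors of calcium in the endoplasmic reticulum, rose by 0.39 and 0.50 and Swap70 by 0.36 on the log2 scale (edgeR adjusted p = 0.0105, 0.0392 and 0.00679). Ppp3ca, a catalytic subunit of calcineurin, rose by 0.54 (edgeR adjusted p = 0.000474). Ppp3ca has no EF hand itself, and Ppp3r1, the EF-hand subunit of calcineurin, was not called. Gca, or grancalcin, fell by 0.78 and Hpcal1 by 0.61 (edgeR adjusted p = 0.00359 and 0.00178). With intron reads added Stim1 was not called (log2 fold change 0.12, edgeR adjusted p = 0.505), and in the 5-library setting Swap70 and Hpcal1 were not (edgeR adjusted p = 0.0923 and 0.0654). The Stim2 call was lost in 11 of 19 other settings, among them leaving out any of P5 replicates 1 to 3 or 4-week replicates 2 to 4 (adjusted p 0.0635 to 0.106).

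Among 8896 tested genes with a mean log2 CPM of at least 4, those whose log2 CPM followed S100a10 most closely over the 8 libraries, after the mean of each age was taken out, were Tbc1d14 (Pearson r = 0.989), Usp22 (r = 0.977) and Rnaset2b (r = 0.976). These are the highest of many values over few libraries, share each library's depth and scaling, and are a description only.

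The libraries held 5775130 to 7470777 exon reads over genes with an mRNA model and detected 14356 to 14802 such genes. The sorted surface markers were present: Procr, the gene of EPCR, averaged 55.0 CPM at P5 and 57.1 CPM at 4 weeks, and Slamf1, the gene of CD150, 33.8 CPM at P5 and 36.6 CPM at 4 weeks. Cd48, sorted against, still had 26, 11, 62 and 33 exon reads at P5 and 16, 36, 20 and 60 at 4 weeks. P5 replicates 1 and 3 had at most 2 Y-linked reads and the other 6 libraries 1532 to 2293. Y-linked reads mark male cells and were present in every 4-week library, so sex was not balanced between the ages. With Y-linked reads as a covariate 2 of the 10 genes, S100a4 and S100a16, were called higher, and likewise in the 6 libraries with such reads. S100a6 and S100a10 lost their calls in both settings. In bulk RNA, fewer cells of a type and less RNA per cell cannot be told apart.

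Because neutrophils and monocytes make S100a8 and S100a9 in quantity, markers of such cells were read in the same libraries. The summed level of 21 neutrophil and granulocyte progenitor markers was 364 ± 41.5 CPM at P5 (SD, n = 4, range 325 to 418). At 4 weeks it was lower, at 281 ± 13.9 CPM (SD, n = 4, range 261 to 292). The two-sided exact permutation p was 0.0286, the smallest that 70 splits allow, and 0.0477 adjusted over 10 marker lists. Of 6 markers tested 4 rose and 1 fell at P5, beside 7.99% and 8.55% of all genes. Gfi1 and Csf3r, which stem cells also express, and Itgam gave most of the sum, so it is not a measure of neutrophils alone. Of the 21, 5 were at 0 in all 8 libraries, namely Ctsg, Ly6g, Mmp8, Cd177 and Stfa1.

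Granule genes with reads did not all run one way. Mpo had 47, 54, 16 and 36 exon reads at P5, against 12, 4, 7 and 15 at 4 weeks (log2 fold change 1.91, edgeR adjusted p = 0.0110). Ltf had 29, 18, 14 and 25 at P5, against 0, 8, 6 and 2 at 4 weeks (log2 fold change 2.25, edgeR adjusted p = 0.0279). Both were higher at P5, with no overlap. Elane had no read at P5 and 1, 2, 6 and 0 at 4 weeks, Camp had 1, 0, 1 and 2 at P5 and 5, 1, 2 and 5 at 4 weeks, Ngp had 2, 5, 4 and 5 at P5 and 7, 4, 2 and 6 at 4 weeks, and Lcn2 had no read at P5 and 1, 0, 1 and 1 at 4 weeks. Retnlg had no read at P5 and 0, 2, 0 and 4 at 4 weeks, and Chil3 had no read at P5 and 0, 1, 6 and 0 at 4 weeks. Prtn3, with more reads than these, had 25.8 ± 6.11 CPM at P5 and 25.5 ± 4.37 CPM at 4 weeks (SD, n = 4 each), a log2 fold change of 0.02 (edgeR adjusted p = 0.966). Elane, Camp, Ngp, Lcn2, Retnlg and Chil3 were too low to test, and in no 4-week library did any of them reach the reads of S100a8. Prtn3, with 182, 116, 174 and 174 reads at 4 weeks, exceeded S100a8 in each. In 4-week replicate 3 Elane and Chil3 each equalled the 6 reads of S100a9. The part of such cells in the S100a8 and S100a9 reads was not tested.

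Beside S100a16, genes of other cell types were also uneven among the P5 libraries. The endothelial gene Cdh5 had 42, 125, 68 and 50 exon reads at P5, against 0, 0, 1 and 0 at 4 weeks. Like S100a16 it was highest in P5 replicate 2 and next in P5 replicate 3, and in CPM so was Pecam1. Among the other endothelial markers, Tek and Stab2 were also highest in P5 replicate 2. Emcn and Plvap were highest in P5 replicate 1, Kdr and Esam in P5 replicate 3 and Egfl7 in P5 replicate 4. The 9 endothelial markers summed to 738 ± 26.8 CPM at P5 (range 706 to 766) and 458 ± 30.3 CPM at 4 weeks (range 425 to 499; SD, n = 4 each, two-sided exact permutation p = 0.0286, adjusted 0.0477), with 3 of 8 tested higher at P5 (7.99% of all genes), and none of the 9 was at 0 everywhere. Egfl7, Tek, Pecam1 and Esam gave most of the sum (272, 151, 140 and 114 CPM at P5, against 90.8, 96.3, 112 and 116 CPM at 4 weeks). Whether stem cells or endothelial cells gave these reads was not tested. The macrophage gene Csf1r had 37, 1017, 49 and 25 exon reads at P5, against 25, 20, 21 and 26 at 4 weeks, and C1qb had 0, 187, 8 and 1 at P5, against 14, 6, 14 and 19 at 4 weeks. Reads of both macrophage genes were thus mainly in P5 replicate 2, the library with most S100a16 and S100b reads.

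The 16 monocyte and macrophage markers summed to 321 ± 142 CPM at P5 (range 230 to 532) and 240 ± 21.3 CPM at 4 weeks (range 211 to 261; SD, n = 4 each, two-sided exact permutation p = 0.286, adjusted 0.409), and none of them was at 0 everywhere. S100a16 had reads in the 3 other P5 libraries too, of which replicates 1 and 4 had at most 1 C1qb read each. Glial markers, read beside S100b, summed to 193 ± 4.90 CPM at P5 (range 187 to 198) and 190 ± 10.8 CPM at 4 weeks (range 174 to 200; SD, n = 4 each, two-sided exact permutation p = 0.714, adjusted 0.714). Nearly all of that was Mbp, while Ngfr and Foxd3 were at 0 everywhere. The part of any of these cells in the S100a16 and S100b reads was not tested.

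**Figure D5:**
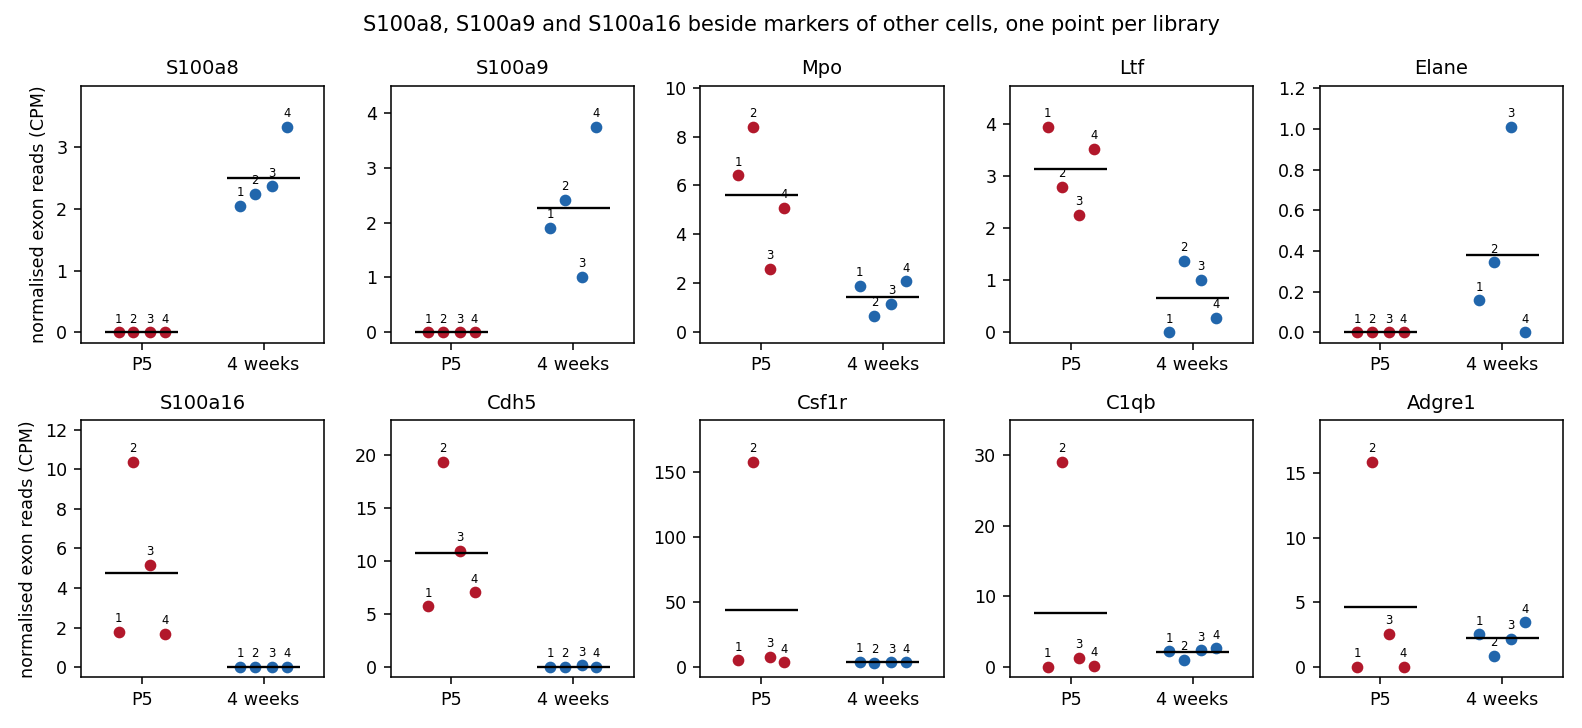
Normalised exon reads (CPM, counts per 1000000 reads, y axis) of S100a8, S100a9 and S100a16 and of marker genes of neutrophils (Mpo, Ltf, Elane), endothelium (Cdh5) and macrophages (Csf1r, C1qb, Adgre1), at P5 (red) and 4 weeks (blue), with numbered points for libraries and bars for means. Mpo and Ltf are higher at P5, while Elane, S100a8 and S100a9 have reads at 4 weeks only. P5 replicate 2 is highest for S100a16, Cdh5 and the macrophage genes.

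Markers of other cells stood apart in 3 libraries: of macrophages in P5 replicate 2, of red cell precursors in 4-week replicate 3, where Car1 had 299 of its 301 reads at that age, and of stroma in 4-week replicate 4, where Cxcl12 had 364 of 374. In the 5 libraries without them, a setting chosen after seeing the data, only S100a16 was called higher, while S100a8 and S100a9 were called lower. S100a4, S100a6 and S100a10 kept log2 fold changes of 0.89, 0.97 and 0.41 there (edgeR adjusted p = 0.0736, 0.117 and 0.123), with 3 P5 libraries against 2. Over the other marker lists, red cell, B and T cell and sorted HSC markers summed higher at P5 and stromal markers lower (adjusted exact permutation p = 0.0477 each), and megakaryocyte and mast cell markers did not pass (adjusted p = 0.571 and 0.714). A few genes weighed heavily in these sums. Of the red cell markers Hbb-bt was higher at P5 (710 CPM, against 96.8 at 4 weeks) and Car2 lower (548 against 687). Cd79b gave most of the B and T cell sum (39.3 CPM at P5, 21.5 at 4 weeks), while Nkg7 was lower at P5. Runx2 gave most of the stromal sum (143 CPM at P5, 239 at 4 weeks). The sorted HSC list held 13 genes, most of them not part of the sort. Of 12 tested, Mecom, Fgd5, Ctnnal1 and Flt3 were called higher (7.99% of all genes). Ly6a was called lower, at 29.6 CPM at P5 and 85.9 at 4 weeks (8.55% of all genes). The other 7 were not called, among them Procr, Slamf1 and Cd48, the genes of the sorted surface markers.

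The authors' own test of the ages is also among the deposited values. In the authors' deposited table the corrected p-value was 1.21e-13 for S100a8, 3.63e-10 for S100a9, 8.72e-10 for S100a16, 2.87e-05 for S100a4, 0.000237 for S100a6 and 0.00868 for S100a10. For S100a11, S100b, S100a1 and S100a13 the authors' deposited table gave 0.276, 0.76, 0.83 and 1. The authors' deposited table puts S100a8 and S100a9 lower at P5 and the other 4 of the first 6 higher.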

How the data were processed

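Messenger RNA was profiled in 8 libraries made from 100 sorted cells each with a Nextera XT kit, per the labels' protocols. Such libraries do not mark strand and carry no molecular identifiers, so floors cover counting error only. The authors deposited, for 48835 gene rows, raw counts of reads over exons, introns and exon junctions, made from trimmed reads per the file headers. RPKM values deposited by the authors were not used, nor were the gene-model and range scores that the authors' tables also hold. The p-values of the authors' own test, called EDGE per the file headers, and its corrected p-values were copied for the 10 genes. Per the submitters' processing notes the genome build was mm10, while the aligner and the counter were not given in the sources used here.

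Exon reads were summed over rows of 1 gene, which left 22050 genes with an mRNA model, and 24 gene names turned into dates in the file of P5 replicate 4 were restored by row. CPM are exon reads per 1000000 of edgeR's effective library size. The test was edgeR 4.0.16 under R 4.3.3 (TMM scaling, filterByExpr, quasi-likelihood fit with age alone), adjusted by Benjamini-Hochberg over 12235 genes at a threshold of 0.05. Standard errors are approximate, being the log2 fold change over the root of F. Replicates had a common biological coefficient of variation of 0.152, and exon reads of a library numbered 5775130 to 7470777. Each marker sum got a two-sided exact permutation test (70 splits, Python 3.11.15, scipy 1.17.1). The code was tested on simulated data.

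The 10 genes, the gene lists and the tests were chosen with earlier results of these data known. Named genes were all members, called genes of the partner, neighbour and EF-hand lists up to 8 of smallest p each, Anxa2, Tlr4, Ager and Cacybp, other S100 family genes with reads, chosen markers, and the 3 genes most like S100a10. Chosen after their values were seen were Anxa1, Anxa3, Anxa4, Myh9, Atp2a2, Iqgap1, Ezr, Ryr2, Siah1a, Ppp3r1, Procr, Slamf1, Retnlg, Chil3, Prtn3, C1qb, Csf1r, Cdh5, Car1 and Cxcl12. So were the endothelial markers Pecam1, Tek, Stab2, Emcn, Plvap, Kdr and Esam, and the HSC markers Mecom, Fgd5, Flt3 and Ly6a. Alternatives were a replicate block, each library left out, other filters, DESeq2 1.42.0 and its size factors, limma-voom (limma 3.58.1), uniquely mapped reads, intron reads added, Y-linked reads as a covariate or a filter, and a log2 fold change of at least 1. Promoters came from RefSeq on GRCm38.p6. Of the listed symbols, Hrn, Ahsp, Trbc1 and Trbc2 did not match. Of the EF-hand list, 1 result is not reported here.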

Additional observations from a re-analysis of the deposited data

Results flagged for a closer look

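In 4 of 52 groups of 4 libraries checked (the 10 genes, 10 marker sums and intron shares, at each age), 1 library lay far from the others. Chance alone flags about 1 in 20 such groups.

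S100b stood at 1.03 CPM in 4-week replicate 2, against 1.51 to 1.58 CPM in the other 4-week libraries, a gap of very few reads. The monocyte and macrophage markers summed to 532 CPM in P5 replicate 2, against 230 to 270 CPM in the other P5 libraries. That library also had the highest S100a16 level, and without it S100a16 remained above its floor, at least 23.3-fold higher at P5. The red cell markers summed to 1080 CPM in 4-week replicate 3, against 825 to 864 CPM in the other 4-week libraries. The mast cell and basophil markers summed to 296 CPM in 4-week replicate 2, against 342 to 350 CPM in the other 4-week libraries, and nearly all of that was Gata2, which stem cells express.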

How the results depend on the processing

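S100a8 and S100a16 were called in all 18 other settings that tested them. Each had no read at 1 age in every such fit, so these calls were nearly fixed in advance and nothing is read from them. The filter of 5 CPM in at least 4 libraries left both untested. S100a4 was called in 18 of 19, S100a6 in 16 and S100a10 in 15. With exon plus intron reads S100a13 changed sign, to a log2 fold change of -0.07, as given above with the intron reads. The 4 genes called higher became 2 with Y-linked reads as a covariate and 2 in libraries with Y-linked reads only. The 1 called lower became 2, S100a9 being added, with no filter, with DESeq2 and in those libraries, and 0 at 5 CPM in at least 4 libraries, which removed both calprotectin genes. In 5 libraries with low markers of other cells, chosen after seeing the data, 1 was called higher and 2 lower, partners numbered 5 higher and 3 lower, and all genes 459 higher and 531 lower, against 977 and 1046. Fewer samples enter that setting. At a log2 fold change of at least 1, 3 partners were lower, and all genes were 323 higher and 349 lower. All genes were 628 higher and 608 lower with the Y covariate, and 619 and 638 in the libraries with Y-linked reads. The 1 neighbour called higher became 0 with the block, limma-voom, exon plus intron reads, both Y settings, the 5 libraries and a log2 fold change of at least 1, and DESeq2 called 1 neighbour lower. The cause was not tested. Leaving out 1 library gave 1 to 2 of the S100 genes lower, 0 to 1 neighbours higher, 0 to 1 lower, and a neutrophil marker difference of 65.2 to 96.4 CPM, P5 minus 4 weeks (83.2 with all). Without any 1 4-week library the exact permutation p of that difference was 0.0571.

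Replicate numbers did not pair the samples, since same-numbered libraries of the ages deviated with correlations of -0.0309, -0.236, -0.0955 and -0.0517, and no P5 library correlated best with the 4-week library of its own number. With the replicate number as a block, 577 genes were called higher and the neighbours called higher were 0, while the 5 called S100 genes stayed called.

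Depth limits S100a8, S100a9, S100a16 and S100b, whose levels rest on 6 to 67 reads a library where they were read at all.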
